A study of Mus musculus with 10 samples.

Results

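The genes described here encode 5 STAT transcription factors (Stat2, Stat3, Stat5a, Stat5b and Stat6) and 4 feedback inhibitors of the same pathway (Socs1, Socs2, Socs3 and Cish). They were chosen by name, as 9 genes of the 30142 that could be tested, and each was read from the 1 row of the deposited table that named it alone. Their signal was measured in mouse brain 7 days after a 2 mm controlled cortical impact, a standardised blow by a driven rod to the cortex on one side of the head. The tested tissue came from the impact side (ipsilateral, 5 arrays) and was set against the matching region of the opposite hemisphere (contralateral, 5 arrays), each sample on its own whole-transcript array. Per the labels the mice were bought adults of both sexes, 8 to 12 weeks old, and the labels used here name no strain, genotype or transgene. All mice had been injured, so the contralateral side is tissue of an injured animal and not of a sham-operated one.

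Cytokines such as interleukin-6, interferons and growth hormone bind receptors that carry JAK kinases, which phosphorylate STAT proteins. Phosphorylated STATs pair, enter the nucleus and switch on target genes, among them the SOCS genes and Cish, whose products in turn block the receptors, the kinases or STAT binding. After brain injury STAT3 is best known for its part in astrocyte reactivity, STAT2 for the response to type I interferon, STAT5 for growth factor and hormone signalling, and STAT6 for the response to interleukin-4 and interleukin-13. STAT proteins are switched on by phosphorylation, which an RNA array does not measure.

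The promoters of the genes can be read for the letters that STAT complexes are known to bind. RefSeq promoters (GRCm38.p6, 250 bases before to 50 after each start) were held for 8 of the 9 genes, all but Socs2, and were searched on both strands for the STAT motif TTCNNNGAA, its form with a longer gap, TTCNNNNGAA, and the interferon motif GAAANNGAAA. The 4 promoters with a match are printed because 3 of them belong to feedback genes that STATs are known to switch on and the other, Stat2, to a factor that interferon is known to induce. Capitals mark the matches, and the last 50 bases of each lie after the start.
Cish, chr9:107296409-107296708, plus strand: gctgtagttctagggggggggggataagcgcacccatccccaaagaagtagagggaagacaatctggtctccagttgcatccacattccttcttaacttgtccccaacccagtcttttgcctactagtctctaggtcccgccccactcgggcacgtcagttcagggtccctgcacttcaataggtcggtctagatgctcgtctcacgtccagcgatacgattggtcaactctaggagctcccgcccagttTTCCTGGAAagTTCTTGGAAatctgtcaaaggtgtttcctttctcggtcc
Socs3, chr11:117969317-117969616, minus strand: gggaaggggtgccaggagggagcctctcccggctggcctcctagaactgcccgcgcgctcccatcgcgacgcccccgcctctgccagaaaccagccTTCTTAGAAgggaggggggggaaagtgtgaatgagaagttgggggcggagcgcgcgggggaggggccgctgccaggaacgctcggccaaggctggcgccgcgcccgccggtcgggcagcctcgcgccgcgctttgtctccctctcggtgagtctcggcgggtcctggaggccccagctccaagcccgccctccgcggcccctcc
Socs1, chr16:10785487-10785786, minus strand: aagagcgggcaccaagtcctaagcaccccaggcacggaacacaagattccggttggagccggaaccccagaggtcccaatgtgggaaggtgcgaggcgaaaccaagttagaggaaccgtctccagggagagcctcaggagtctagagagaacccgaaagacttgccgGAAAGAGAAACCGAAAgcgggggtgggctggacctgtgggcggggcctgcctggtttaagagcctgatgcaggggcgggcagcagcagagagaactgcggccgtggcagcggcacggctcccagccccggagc
Stat2, chr10:128270248-128270547, plus strand: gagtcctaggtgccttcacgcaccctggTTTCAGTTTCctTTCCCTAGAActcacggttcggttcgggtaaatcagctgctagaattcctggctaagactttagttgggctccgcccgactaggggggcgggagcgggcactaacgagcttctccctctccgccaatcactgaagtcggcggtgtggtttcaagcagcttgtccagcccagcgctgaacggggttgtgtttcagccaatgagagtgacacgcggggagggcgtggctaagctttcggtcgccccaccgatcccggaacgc

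Cish held the STAT motif at 2 places, bases 1 to 9 and 12 to 20 counted from the start. Socs3 held it once, at -154 to -146. Of all 32851 promoters in the table, 8.30% held TTCNNNGAA at least once and 0.457% held it 2 or more times. The interferon motif was found in Socs1, as 2 overlapping matches between -83 and -68, and in Stat2, at -222 to -213 on the opposite strand, against 3.44% of all promoters. Stat2 also held the longer-gap STAT motif at -210 to -201, found in 6.95% of all promoters. The listed promoters of Stat3, Stat5a, Stat5b and Stat6 held none of these letters. A match is a description of the sequence and does not show binding.

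The arrays were not alike within a side. Markers of the choroid plexus (4 genes measured of 4 listed, 3 of them above every array's median) averaged 10.71 and 8.82 log2 units on ipsilateral arrays 2 and 4 and 11.50 and 8.19 on contralateral arrays 2 and 4, against 5.61 to 6.56 on the other 6 arrays. On the arrays numbered 4 this rested mostly on Ttr (13.64 ipsilaterally and 12.66 contralaterally, against 5.83 to 7.55 on the other 6). Kcnj13 was lower on contralateral array 4 (9.25) than on ipsilateral array 5 (9.41). Markers of microglia (4 measured of 5) averaged 9.37 and 9.30 on ipsilateral arrays 4 and 5, 8.34 to 8.62 on the other ipsilateral arrays and 8.10 to 8.52 contralaterally. Macrophage and monocyte markers (5 of 5) averaged 7.80 and 7.94 on ipsilateral arrays 4 and 5, 5.95 to 6.53 on the other ipsilateral arrays and 5.49 to 6.19 contralaterally. Neuron markers (4 of 4) averaged 15.39 to 15.84 ipsilaterally and 15.63 to 15.97 contralaterally, far above the array medians. Oligodendrocyte markers (3 of 4) averaged 9.09 to 9.40 on ipsilateral arrays 1, 2 and 3, 10.45 and 10.20 on ipsilateral arrays 4 and 5 and 9.76 to 11.26 contralaterally. Fibroblast markers (3 of 4) averaged 7.65 to 9.59 ipsilaterally and 6.63 to 7.48 contralaterally, with no overlap. Endothelial markers averaged 9.10 to 9.59 ipsilaterally and 9.19 to 9.64 contralaterally, and neutrophil markers 4.41 to 5.05 ipsilaterally and 4.32 to 4.50 contralaterally. By the test given below, the markers that passed were Dcn and Col1a1 of the fibroblast list, Aqp4 of the astrocyte list and Cd163 of the macrophage and monocyte list, which rose, and Rbfox3 of the neuron list, which fell. The astrocyte markers did not move together. Beside Aqp4, Slc1a3 (0.47) and Gja1 (0.32) had positive differences, Aldh1l1 (-0.36) and Slc1a2 (-0.15) had negative ones, and none of these passed. T cell and B cell markers averaged 3.98 to 4.38 on all arrays, below the lowest array median of 4.71.

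None of the 9 genes passed the test between sides, and none had groups that did not overlap. Over all genes, limma with Benjamini-Hochberg adjustment called 5.55% at the threshold of 0.05 (1.22% higher and 4.33% lower on the ipsilateral side), and 7.25% had groups that did not overlap. Higher genes made up 22.0% of these calls, and 8.13% with each array centred on its median. With no adjustment, 1 of the 9, Stat3, had a p under 0.05, where 21.3% of all genes did. The log2 difference was positive for 8 of the 9 (6 with median centring and 7 with quantile scaling) and its median was 0.10, while 56.1% of all genes had a positive difference and the median over all genes was 0.02. The exact permutation test over all splits of the 10 arrays into 5 and 5 called no gene of the whole table after adjustment. Genes at its smallest possible p did not pass either, so it could not single out any of the 9. It gave 1 of the 9, Stat3, an unadjusted p under 0.05. Values throughout are log2 signals as deposited, and differences are ipsilateral minus contralateral means of these.

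**Figure D1:**
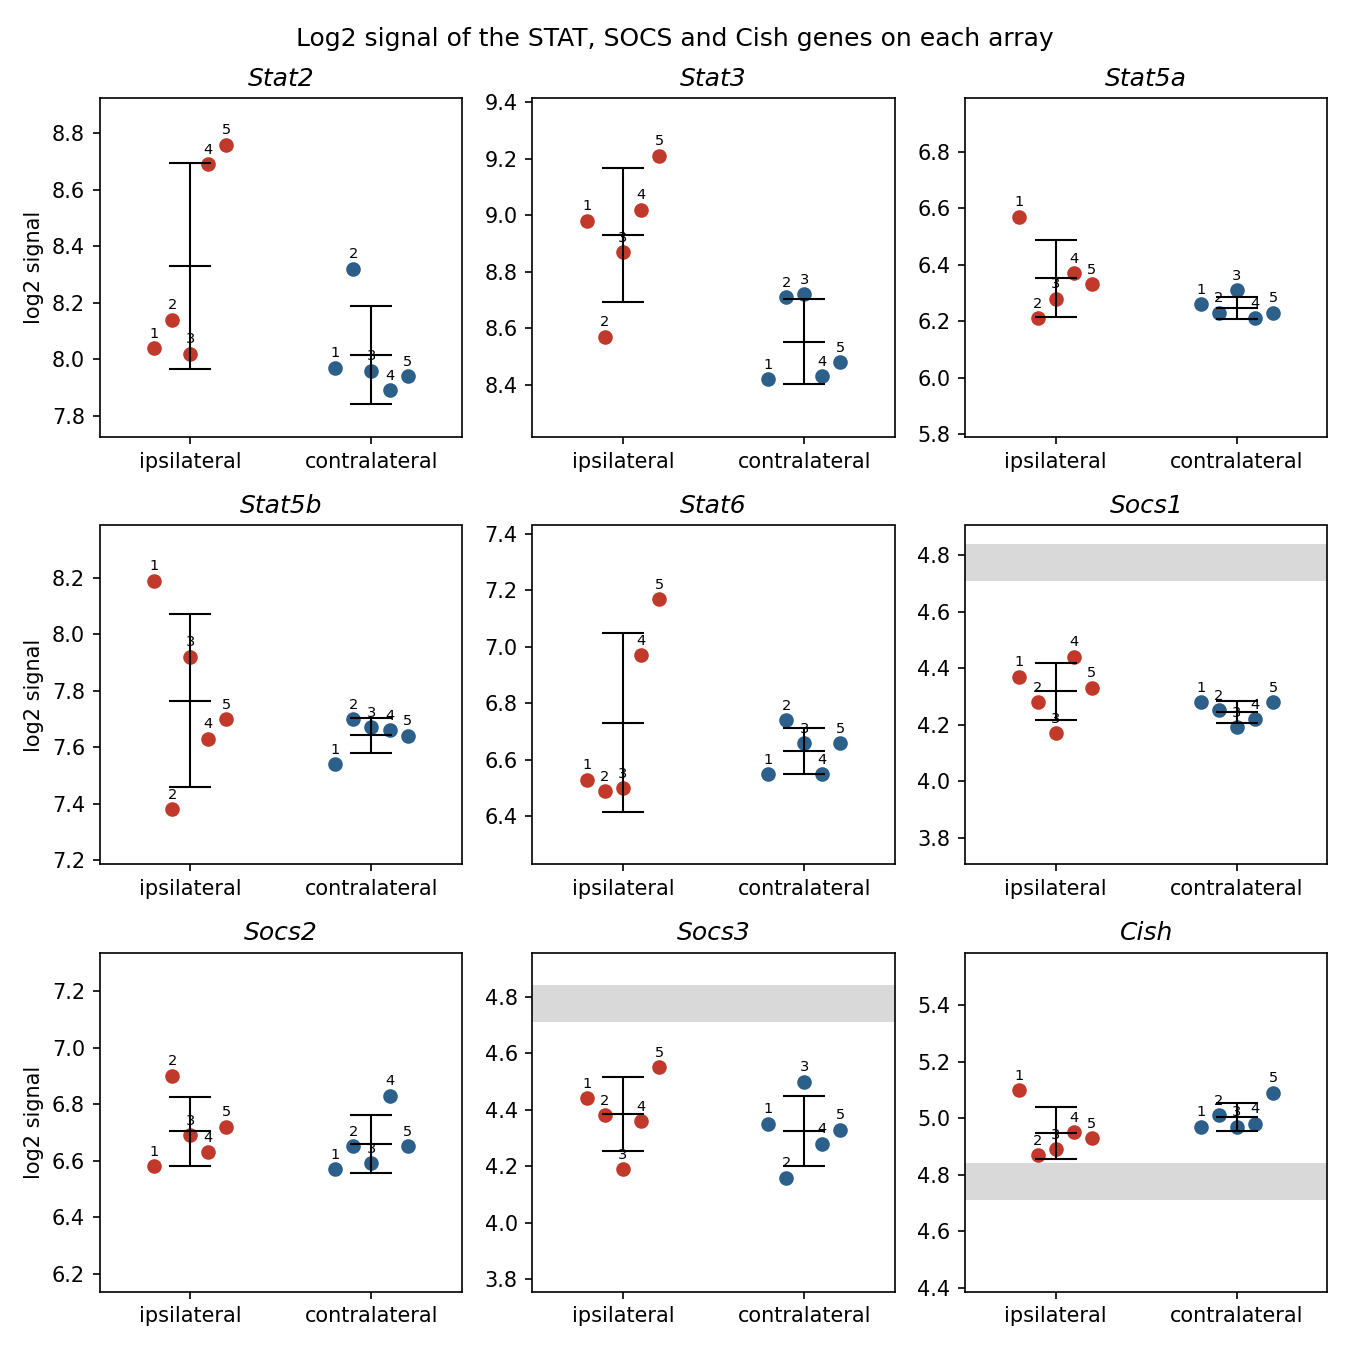
Log2 signal of each gene on each array, with the replicate number above its point, for 5 ipsilateral (red) and 5 contralateral (blue) arrays; bars are mean ± SD, all panels span the same number of log2 units, and the grey band marks the range of the array medians (4.71 to 4.84). Stat3 comes nearest to separating the sides, Stat2 and Stat6 are highest on ipsilateral arrays 4 and 5, and Socs1 and Socs3 lie below the band on every array.

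Stat3 encodes the factor that carries signals of the interleukin-6 family, and it had the largest difference of the 9, except without ipsilateral array 1, where Stat2 had the largest. Its log2 signal was 8.98, 8.57, 8.87, 9.02 and 9.21 on ipsilateral arrays 1 to 5, against 8.42, 8.71, 8.72, 8.43 and 8.48 on contralateral arrays 1 to 5. Ipsilateral arrays 1, 3, 4 and 5 lay above every contralateral one, and ipsilateral array 2 lay inside the contralateral range. Ipsilateral arrays 5 and 4, the highest for Stat3, were also those with the highest microglia, macrophage and astrocyte markers. Ipsilateral array 1, next at 8.98, had the lowest ipsilateral means of these markers (8.34, 5.95 and 9.66). The part of these cells in the Stat3 signal was not tested. The means were 8.93 ± 0.24 ipsilaterally and 8.55 ± 0.15 contralaterally (SD, n = 5 each), a log2 difference of 0.38 ± 0.12 (SE) with a 95% interval of 0.12 to 0.63, or 1.30-fold. The adjusted p was 0.0884 in limma, and the exact two-sided permutation p for Stat3 alone, unadjusted, was 0.0238. Without ipsilateral array 2, which is also 1 of the 4 arrays with high choroid plexus markers, the difference was 0.47 and Stat3 passed the test (adjusted p = 0.0287). Without arrays 2 and 4 of both sides the difference was 0.48 and the adjusted p 0.140, with 3 arrays per side left.

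Stat2 encodes a factor that acts with IRF9 in the response to type I interferon, in the complex ISGF3. Its signal was 8.04, 8.14, 8.02, 8.69 and 8.76 on ipsilateral arrays 1 to 5, against 7.97, 8.32, 7.96, 7.89 and 7.94 on contralateral arrays 1 to 5. Ipsilateral arrays 4 and 5 stood above all others, while the other 3 lay within the contralateral range, whose top was set by contralateral array 2. The log2 difference was 0.31 ± 0.16 (SE), with a 95% interval of -0.04 to 0.67 and an adjusted p of 0.298 in limma. Stat2 was thus high on the ipsilateral arrays with the highest microglia and macrophage markers, whose part in its signal was not tested. In bulk tissue a different share of a cell type and a different RNA level per cell cannot be told apart.

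Stat6, the factor of interleukin-4 and interleukin-13 signalling, showed the same arrays on top. It stood at 6.53, 6.49, 6.50, 6.97 and 7.17 on ipsilateral arrays 1 to 5, against 6.55, 6.74, 6.66, 6.55 and 6.66 on contralateral arrays 1 to 5. Ipsilateral arrays 4 and 5 lay above every contralateral array and ipsilateral arrays 1, 2 and 3 lay below every one of them, so the side means, 6.73 ± 0.32 and 6.63 ± 0.08, differed by 0.10 (95% interval -0.20 to 0.40, adjusted p = 0.727 in limma). Ipsilateral arrays 1, 2 and 3 were also those with the lowest oligodendrocyte markers, whose part in the Stat6 signal was not tested. The direction rested on ipsilateral array 5, without which the difference was -0.01, and the size was 0.03 with median centring or quantile scaling. With the mean of each side removed, Stat6 and Stat2 correlated at r = 0.94 over the 10 arrays, the highest value among the 36 pairs of the 9 genes. That value is a description only, since the arrays share the spread in cell-type markers just given.

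Stat5a and Stat5b encode close paralogues that act in growth hormone, prolactin and erythropoietin signalling. The genes lie side by side on chromosome 11, with Stat3 next to Stat5a among protein-coding genes. Stat5b stood at 8.19, 7.38, 7.92, 7.63 and 7.70 on ipsilateral arrays 1 to 5, against 7.54, 7.70, 7.67, 7.66 and 7.64 on contralateral arrays 1 to 5. The ipsilateral arrays reached both above and below the contralateral ones, with array 1 highest and array 2 lowest. The difference was 0.12 (95% interval -0.16 to 0.41, adjusted p = 0.644 in limma). The size rested on single arrays: it was 0.02 without ipsilateral array 1 and 0.22 without ipsilateral array 2, 0.05 with each array centred on its median, and 0.32 without arrays 2 and 4 of both sides. None of these passed.

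Stat5a stood at 6.57, 6.21, 6.28, 6.37 and 6.33 on ipsilateral arrays 1 to 5, against 6.26, 6.23, 6.31, 6.21 and 6.23 on contralateral arrays 1 to 5. It was highest on ipsilateral array 1 too, and the groups overlapped. The difference was 0.10 (95% interval -0.05 to 0.26, adjusted p = 0.432 in limma), and it was 0.05 without ipsilateral array 1, 0.03 with median centring and 0.02 with quantile scaling. With side means removed Stat5a and Stat5b correlated at r = 0.76 over the 10 arrays. Cross-hybridisation between these paralogues was not tested. Ipsilateral array 1 was the ipsilateral array with the lowest macrophage and monocyte, microglia and astrocyte marker means, so Stat5a and Stat5b were high on a different array from Stat2 and Stat6.

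The 4 feedback inhibitors had differences between -0.06 and 0.07, and whether these differ from those of the STAT genes was not tested. Socs3, which binds the shared interleukin-6 receptor chain and shuts off JAK signalling to STAT3, stood at 4.44, 4.38, 4.19, 4.36 and 4.55 on ipsilateral arrays 1 to 5, against 4.35, 4.16, 4.50, 4.28 and 4.33 on contralateral arrays 1 to 5. The 2 sets overlapped almost fully, and each value lay below the median of every array. Its difference was 0.06 (95% interval -0.12 to 0.24, adjusted p = 0.732 in limma), -0.01 with each array centred on its median and 0.00 without arrays 2 and 4 of both sides. Signal above background was not shown at this level, so the interval bounds the array signal and not the change of the transcript. The same holds for Socs1, which inhibits JAK kinases in interferon signalling: it stood between 4.17 and 4.44 ipsilaterally and between 4.19 and 4.28 contralaterally, with a difference of 0.07 (95% interval -0.06 to 0.21, adjusted p = 0.526) that was 0.00 with median centring.

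Cish, the SOCS-family gene known as a STAT5 target, lay just above the array medians. It stood at 5.10, 4.87, 4.89, 4.95 and 4.93 on ipsilateral arrays 1 to 5, against 4.97, 5.01, 4.97, 4.98 and 5.09 on contralateral arrays 1 to 5. Ipsilateral arrays 2 to 5 lay below every contralateral array and ipsilateral array 1 above them all. Its difference was -0.06 (95% interval -0.19 to 0.07, adjusted p = 0.642 in limma), -0.13 with median centring and -0.13 with quantile scaling. At the deposited scaling no other of the 9 had a negative difference, while Socs2 and Socs3 were negative too with median centring, and Socs2 with quantile scaling. The array on which Cish was highest, ipsilateral array 1, was also the highest for Stat5a and Stat5b.

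Socs2, the regulator of growth hormone signalling, was the one inhibitor well above the array medians. It stood at 6.58, 6.90, 6.69, 6.63 and 6.72 on ipsilateral arrays 1 to 5, against 6.57, 6.65, 6.59, 6.83 and 6.65 on contralateral arrays 1 to 5. The highest array of each side was 1 of the 4 with high choroid plexus markers, and the groups overlapped. Ipsilateral array 4 (6.63) and contralateral array 2 (6.65), also among those 4, lay within the range of the arrays outside those 4. Its difference of 0.05 had a 95% interval of -0.12 to 0.21, which reaches from 0.920-fold to 1.16-fold (adjusted p = 0.785 in limma). With each array centred on its median the difference was -0.03, and with quantile scaling -0.01.

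**Figure D2:**
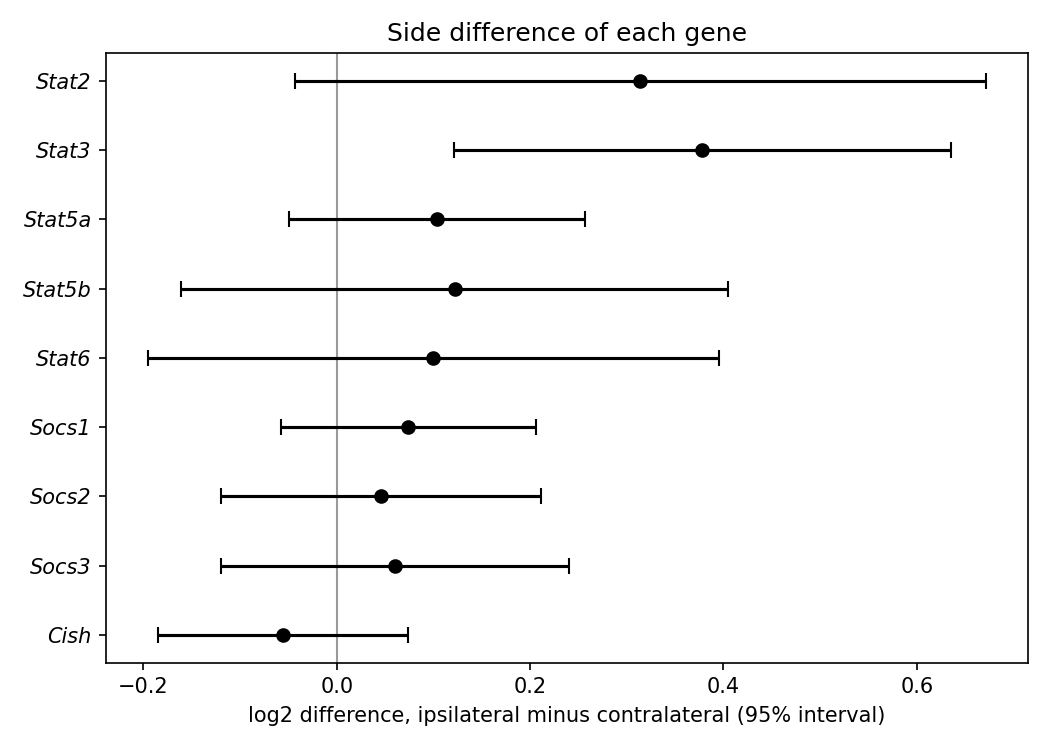
Log2 difference of each gene, ipsilateral minus contralateral (points), with its 95% interval from limma (bars). Only the interval of Stat3, 0.12 to 0.63, lies wholly above 0 before adjustment over all genes, and the intervals of Socs1, Socs2, Socs3 and Cish lie between -0.19 and 0.24.

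Whether one of these genes differed more between sides than another was tested for 16 pairs, the 10 pairs of STAT genes and the 6 pairs of inhibitors. No pair passed after adjustment over the 16 (smallest adjusted p = 0.190, exact two-sided permutation test over the splits of the arrays, whose smallest p is 0.00794). A lone pair at that smallest p would not have passed this adjustment, so the result does not show that the genes changed alike. The lowest unadjusted p, 0.0238, belonged to Stat3 against Stat6, whose differences were 0.28 apart, and to Stat2 against Stat6, 0.21 apart. All 9 genes had a larger SD on the ipsilateral side, as did 63.6% of all genes. The ratio was widest for Stat5b (0.31 against 0.06) and narrowest for Socs3 (0.13 against 0.12).

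**Figure D3:**
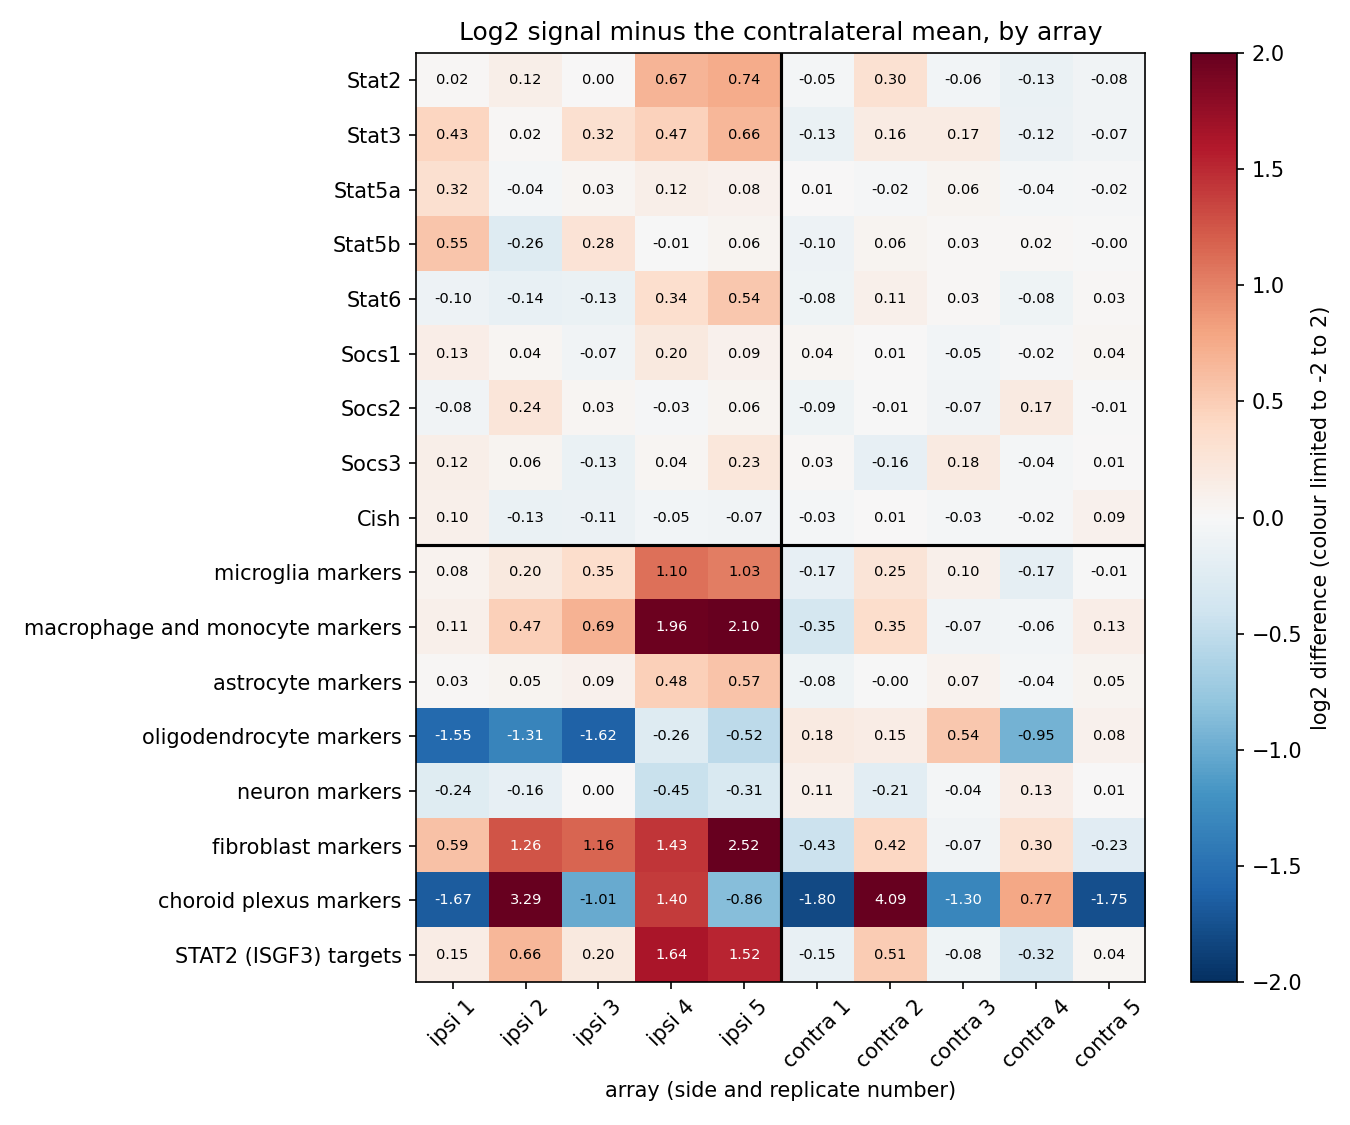
Log2 signal of each gene (upper rows) and mean log2 signal of marker and target lists (lower rows) on each array, minus the contralateral mean of that row; ipsilateral arrays are on the left and contralateral arrays on the right. Stat2, Stat6, the ISGF3 targets and the microglia and macrophage markers are high on ipsilateral arrays 4 and 5, while the choroid plexus markers are high on arrays 2 and 4 of both sides.

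The rest of the pathway was read from 12 lists by role, 104 genes beside the 9, of which 93 were analysed here. Of these 93, 1 rose and 3 fell on the ipsilateral side, a share of 4.30% against 5.55% of all genes, and their median log2 difference was 0.09. That order of the shares was not fixed: in 4 of 23 other settings the share of these genes was the higher one, among them the fit without ipsilateral array 1 (11 rose and 4 fell, 16.1% against 7.85% of all genes) and array weights (9.68% against 7.53%). The fall with the lowest adjusted p was that of Eloc, which encodes elongin C, the adaptor that links the SOCS box to a ubiquitin ligase. Eloc stood at 12.86, 12.90, 12.81, 12.98 and 12.80 on ipsilateral arrays 1 to 5, against 13.46, 13.26, 13.37, 13.22 and 13.40 on contralateral arrays 1 to 5. The groups did not overlap, and the difference was -0.47 ± 0.06 (SE, adjusted p = 0.00266 in limma). It passed in 22 of 23 other settings. The exception was the exact permutation test adjusted over all genes (0.110), in which Eloc had the smallest p the test allows and no gene passed. The other SOCS-box partners, Elob, Cul5 and Rnf7, did not pass (0.22, -0.05 and -0.06).

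Among the STAT and SOCS genes outside the 9, 1 of the 5 measured fell and none rose. Stat4, the factor of interleukin-12 signalling, averaged 4.50 ± 0.14 ipsilaterally and 5.13 ± 0.30 contralaterally (SD, n = 5 each), a difference of -0.63 ± 0.14 (SE, adjusted p = 0.0231 in limma). The ipsilateral mean lay below every array's median, so the size of this fall is not settled, and contralateral array 4 (4.62) lay inside the ipsilateral range of 4.35 to 4.66. The call ended without any one of ipsilateral arrays 2, 4 and 5 or contralateral arrays 1, 2, 3 and 5 (adjusted p up to 0.0625). Socs4 (-0.20), Socs5 (-0.27) and Socs7 (-0.38) did not pass, with adjusted p between 0.0746 and 0.113, and Socs6 stood at 0.05.

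The differences of the kinases and receptors were not tested against each other. None of the 3 measured JAK kinases passed, with Jak1 at -0.03, Jak2 at -0.08 and Tyk2 at 0.00. Jak2 was highest on ipsilateral array 1 (10.53, against 9.70 to 9.96 on the other ipsilateral arrays and 9.99 to 10.15 contralaterally), the array that was also highest for Stat5a and Stat5b. None of the 5 measured receptor genes of the interleukin-6 family passed: the oncostatin M receptor Osmr had 6.96, 7.35, 7.58, 8.52 and 9.37 on ipsilateral arrays 1 to 5, against 6.36, 7.06, 6.71, 6.63 and 6.50 on contralateral arrays 1 to 5. Its difference was 1.30 ± 0.39 (SE, adjusted p = 0.0843 in limma), and the shared signalling chain Il6st had 0.50 (adjusted p = 0.173). Ipsilateral arrays 4 and 5 were the highest for both receptors.

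None of the 5 interferon receptor genes passed. Ifngr1, the ligand-binding chain of the interferon-gamma receptor, had 8.45, 8.48, 8.47, 9.23 and 9.34 on ipsilateral arrays 1 to 5, against 7.95, 8.35, 8.13, 8.06 and 8.12 on contralateral arrays 1 to 5. The groups did not overlap, and the difference was 0.67 ± 0.19 (SE, adjusted p = 0.0660 in limma). Of 13 other cytokine receptor genes 1 rose, Il13ra1, a chain of the receptor through which interleukin-13 engages STAT6. Il13ra1 stood at 8.41, 8.42, 8.97, 9.17 and 9.53 on ipsilateral arrays 1 to 5, against 7.42, 8.20, 8.08, 8.19 and 8.09 on contralateral arrays 1 to 5, a difference of 0.90 ± 0.23 (SE, adjusted p = 0.0479 in limma). Every ipsilateral array lay above every contralateral one, but the call ended with median centring (0.0563), without any one of ipsilateral arrays 3, 4 and 5 or of the contralateral arrays (up to 0.105), and without arrays 2 and 4 of both sides (0.160).

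None of the 20 measured ligand genes passed, and 18 of them, among them Il6, Lif, Osm, Ifnb1, Ifng, Il4 and Il13, averaged below the median of each array, a level at which nothing can be said of their direction. Ctf1, the interleukin-6 family cytokine cardiotrophin-1, was 1 of the other 2 and had 0.25 (adjusted p = 0.145). Of 10 other inhibitors 1 fell: Ptpn11, which encodes the phosphatase SHP2, averaged 10.95 ± 0.11 ipsilaterally and 11.24 ± 0.10 contralaterally (SD, n = 5 each), a difference of -0.29 (adjusted p = 0.0398 in limma). That call ended in 13 of 23 other settings, with adjusted p up to 0.182, among them quantile scaling (0.0669) and cyclic loess (0.118). It also ended without any one of the arrays other than ipsilateral array 1 and contralateral array 4. The SUMO ligases Pias1 to Pias4 had differences between -0.10 and 0.00.

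**Figure D4:**
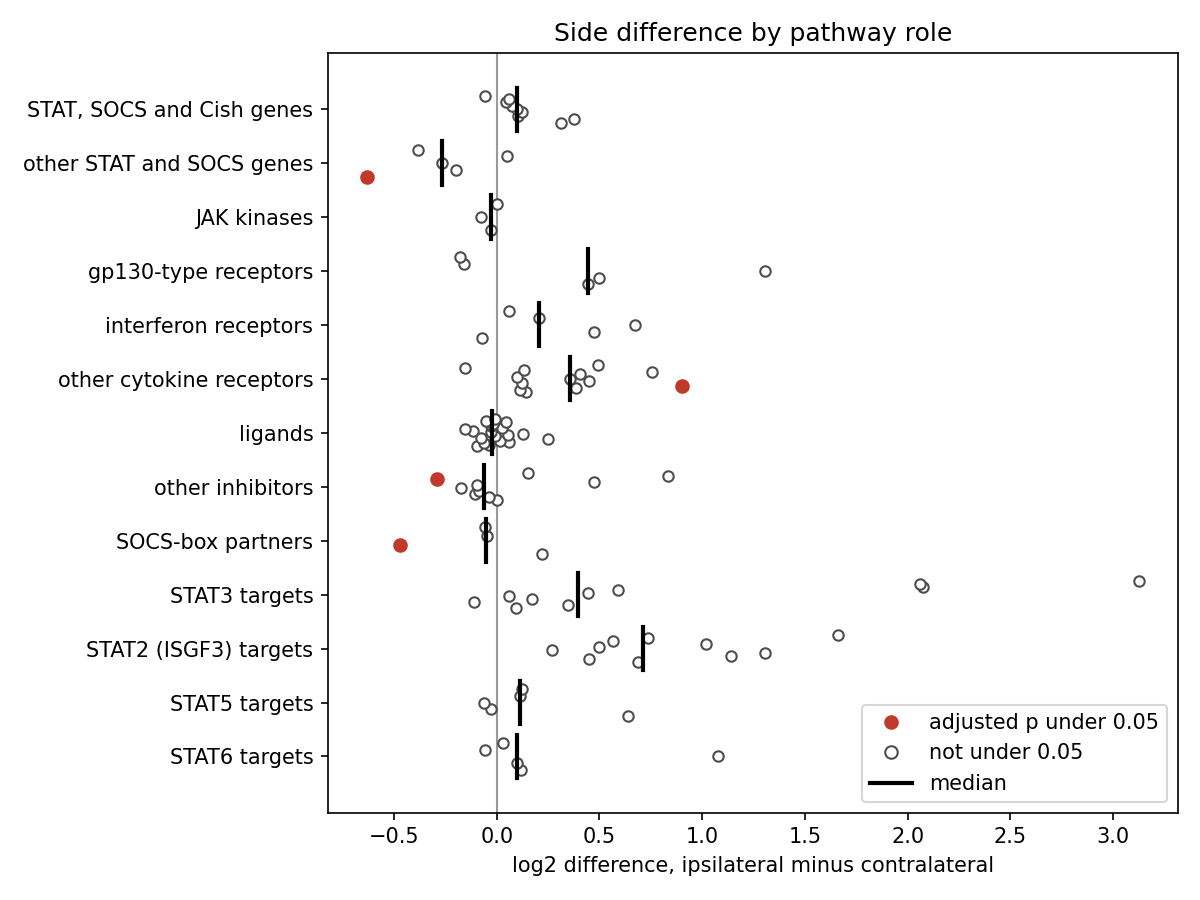
Log2 difference, ipsilateral minus contralateral, of each gene (points) by role in the pathway, with the median of each list as a black bar; filled red points passed an adjusted p of 0.05 over all genes. The 4 filled points are Stat4, Il13ra1, Ptpn11 and Eloc, and all 10 ISGF3 targets lie to the right of 0.

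None of the known targets of the factors passed the test in the main fit. Elsewhere 1 ISGF3 target passed: with a random replicate block, with array weights, without the dimmest 25% or 50% of genes, and without ipsilateral array 1. Without ipsilateral array 1, 2 of the 10 STAT3 targets passed too (20% against 7.85% of all genes). All 10 ISGF3 targets had positive differences, with a median of 0.71, where 56.1% of all genes had a positive difference. Each had an unadjusted p under 0.05 in limma, where 21.3% of all genes did. None passed over all genes in the main fit. In the exact permutation test the unadjusted p ran from 0.0159 (Irf9) to 0.103 (Rsad2). It was not under 0.05 for Isg15, Ifit1, Oas1a, Usp18, Irf7 and Rsad2. Mx1, one of the 10, averaged below the median of each array, and its sign carries no weight. Irf9, the DNA-binding partner of STAT2, came nearest, at 6.42, 6.72, 6.57, 7.06 and 7.43 on ipsilateral arrays 1 to 5, against 5.98, 6.43, 6.19, 5.96 and 6.20 on contralateral arrays 1 to 5 (0.69 ± 0.18, SE, adjusted p = 0.0512 in limma). The mean of the 10 targets was 5.93, 6.43, 5.97, 7.41 and 7.30 on ipsilateral arrays 1 to 5 and 5.63, 6.29, 5.70, 5.46 and 5.81 on contralateral arrays 1 to 5. Like Stat2 it was highest on ipsilateral arrays 4 and 5, the arrays with the highest microglia and macrophage markers, and among contralateral arrays on array 2. The part of these cells in the target signal was not tested.

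Of 10 STAT3 targets 3 (Bcl3, Timp1 and Lcn2) had a 10-array mean below the median of each array. Their direction was not counted, and none of the 10 passed in the main fit. Lcn2 stood at 5.31 and 6.06 on ipsilateral arrays 4 and 5, against 4.29 to 4.36 on the other ipsilateral arrays and 4.11 to 4.37 contralaterally. Timp1 stood at 4.73 and 4.87 on those 2 arrays, against 3.95 to 4.18 on the other ipsilateral arrays and 3.87 to 4.08 contralaterally. The size of these differences is not settled. Of the other 7 targets 6 had positive differences and Pim1, which encodes a kinase, had -0.11. Gfap, the astrocyte filament gene, had 2.07 and the lowest adjusted p of the 10 (0.0814 in limma). Serpina3n had a larger difference, 3.13 (adjusted p = 0.0876 in limma), and Vim had 2.06 (adjusted p = 0.0937 in limma). Astrocyte markers other than Gfap (5 of 5 measured, all above every array's median) averaged 9.66 to 10.20 ipsilaterally and 9.55 to 9.70 contralaterally, highest on ipsilateral arrays 4 and 5, and their part in these values was not tested. Of these markers Aqp4, Slc1a3 and Gja1 had positive differences, and Aldh1l1 (-0.36) and Slc1a2 (-0.15) negative ones. The growth factor gene Igf1, a STAT5 target, had 0.64 (adjusted p = 0.119), and the mannose receptor gene Mrc1, a STAT6 target, had 1.08 (adjusted p = 0.111). None of the 5 measured STAT5 and 5 measured STAT6 targets passed.

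The genes whose pattern over the 10 arrays was most like that of Stat3, with side means removed and among 18123 genes above the array medians, were Fkbp7 (r = 0.98), Dnm2 (0.96) and Garre1 (0.96). For Socs3 they were Snora78 (0.95), Med9 (0.95) and Adh6-ps1 (0.95). None of the 6 differed between sides by the test (adjusted p between 0.103 and 0.538 in limma). With so many genes and 10 arrays high values are found for many genes, and 1% of those ranked reached r of 0.81 for Stat3 and 0.72 for Socs3.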

How the data were processed

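RNA of 10 mouse brain samples, 5 ipsilateral and 5 contralateral, was hybridised to whole-transcript arrays after preparation with the Affymetrix WT PLUS kit, per the labels' protocols. The authors deposited log2 signals, 1 column per array. The submitters' processing notes name Transcriptome Analysis Console 4.0. That the scale is log2 was taken from the range of the values (1.97 to 19.93). Background correction, normalization and build are not given in the sources used here. Array medians were 4.79 to 4.84 ipsilaterally and 4.71 to 4.77 contralaterally, so an offset between arrays cannot be told apart from side. No batch or scan date was given.

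Of 65956 rows, 30604 named 1 gene symbol, and 22818 of these matched the RefSeq table of GRCm38.p6 by Entrez identifier. The brightest row per gene gave 30142 genes, and each of the 9 genes had 1 row. Ipsilateral minus contralateral was fitted over all genes with limma 3.58.1 (R 4.3.3, statmod 1.5.0), lmFit and eBayes, with no covariate; a gene was called at a two-sided Benjamini-Hochberg adjusted p under 0.05. The fit was tested on simulated data. The labels call the samples biological replicates, their number limits the precision, and p-values measure the spread between these samples.

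The genes, lists and tests were chosen with earlier results of these data known. Named were the 9 genes, all called genes of each pathway list, a list's strongest gene where none was called, the 3 genes most like Stat3 and like Socs3, and further list genes chosen after their values were seen. Alternatives were a replicate block, scaling, variance models, array weights, filters on dim genes, other choices of rows, an exact permutation test and each array left out. Leaving out arrays 2 and 4 of both sides was added after seeing the data. Same-numbered arrays of the 2 sides did not deviate together in every pair (r of deviations 0.35, 0.31, -0.06, -0.48 and -0.04 over 18130 genes). Choroid plexus markers, though, were high on arrays 2 and 4 of both sides. The labels do not say that a number marks 1 animal, so the numbers were not taken as pairs in the main fit.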

Additional observations from a re-analysis of the deposited data

Results flagged for a closer look

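Stat2 stood at 8.32 on contralateral array 2, a value far from the other 4 contralateral arrays (7.89 to 7.97). Il13ra1 stood at 7.42 on contralateral array 1, far from the other 4 (8.08 to 8.20). These were 2 of 42 groups of 5 arrays examined over 21 genes, where chance gives about 1 in 20.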

How the results depend on the processing

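With all 10 arrays, none of the 9 genes passed under any other scaling, variance model, filter, choice of rows or test. The exact permutation test among these could call no gene of the whole table after adjustment. Each array left out in turn gave 0.308 to 0.468 for Stat3, which passed only without ipsilateral replicate 2 (adjusted p = 0.0287), and called 0 to 1 of the 9 genes higher. Signs turned for values near 0: Socs2 was -0.026 with median centring, -0.0148 with quantile scaling and -0.003 to 0.089 with single arrays left out, Socs3 was -0.012 with median centring, and Stat6 was -0.0095 to 0.1605 with single arrays left out. Socs1, Socs3 and Cish were not tested where the dimmest 50% of genes were left out. Over all genes, 369 higher and 1305 lower calls became 177 and 769 with a fixed replicate block, 232 and 2623 with median centring, 0 and 0 by the adjusted exact permutation test, and 77 and 289 without the arrays numbered 2 and 4. Array weights gave 656 higher, and single arrays left out gave 111 to 760 higher and 740 to 1607 lower. Of the 93 pathway genes, 1 higher and 3 lower became 2 higher with a random replicate block, 0 and 6 with median centring, 6 higher with array weights, 3 and 4 higher without the dimmest 25% and 50%, 0 and 0 by the exact test, 0 higher without the arrays numbered 2 and 4, and 0 to 11 higher and 1 to 4 lower with single arrays left out. The fixed block changed the call of none of the 9 genes (Stat3 adjusted p = 0.193), and ended that of Ptpn11 (0.121). No pair of the 16 passed with single arrays left out or with the mean of a gene's rows, where again a lone pair could not have passed. Why the counts moved was not tested, and the low signal of Socs1 and Socs3 limits what could be seen.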
